A study of Rattus norvegicus with 20 samples.

Results

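Axon guidance ligands and receptors were followed in the shell of the nucleus accumbens, the ventral part of the striatum, in alcohol-preferring (P) rats. The genes were taken by symbol from the platform's annotation. They are those whose symbols begin with Sema, Plxn, Epha or Ephb and a digit, Efna, Efnb, Slit and a digit, Robo, Ntn and a digit or Unc5, together with Nrp1, Nrp2 and Dcc. This gave 58 of the 14218 genes that a probe set of the array names alone, read by 97 probe sets, and the brightest probe set over the 20 arrays stood for each gene. Among them were 17 semaphorins, 8 plexins, 2 neuropilins, 3 ephrin-A and 2 ephrin-B ligands, 8 EphA and 4 EphB receptors, 3 Slits, 3 Robo receptors, 2 netrins, and Dcc with Unc5a, Unc5b, Unc5c and Unc5cl. Unc50 matched by spelling alone and is no guidance gene, and Unc5cl is an intracellular relative of the netrin receptors. Of the 58 genes 48 were tested, and 10 lay below a mean of 6.65 on the log2 scale and were left out as too dim.

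Both groups were P rats, a line selected for drinking ethanol freely. Rats of the ethanol group (n = 10) could drink solutions of 15 and 30% ethanol in adolescence, in a binge-like pattern by the series title, while rats of the water group (n = 10) received water only. The labels give no age beyond adolescence, no sex, no time between drinking and dissection, and no other allele or agent. Each animal is titled on its own and has 1 array, and the groups are compared to ask which guidance transcripts differed after adolescent ethanol drinking.

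Guidance molecules steer growing axons and, in the mature brain, take part in shaping synapses. Semaphorins act through plexin receptors, the secreted class 3 members mostly with a neuropilin as co-receptor, while Sema3e binds Plxnd1 directly. Ephrins are held in the membrane, ephrin-A ligands by a lipid anchor and ephrin-B ligands by a transmembrane stretch, and bind Eph receptor tyrosine kinases on the neighbouring cell. Slits repel axons through Robo receptors, and netrins attract axons through Dcc or repel them through Unc5 receptors. In the striatum, Sema3e and Plxnd1 are known for thalamic input to projection neurons of the direct pathway, and netrin-1 and Dcc for the growth of dopamine axons during adolescence.

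Array medians lay between 7.93 and 7.98. The list of 24 markers of medium spiny neurons, which make up most of the striatum, had 23 on the array and 23 above the dimness limit, so markers of the labelled tissue were present. Its mean was 12.15 to 12.77 in ethanol and 11.46 to 12.78 in water, where animals 17, 19 and 20 were lowest at 11.71, 11.93 and 11.46. By correlation with the other arrays, water animals 12, 17 and 20 stood apart. The 3' minus 5' signal of 3 control transcripts, a measure of RNA integrity, was 1.16 ± 0.11 in ethanol and 1.29 ± 0.15 in water (SD, n = 10 each, two-sided permutation test of 100000 resamples, p = 0.0384).

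No guidance gene passed the test between ethanol and water rats after adjustment over all 20695 probe sets. By limma, 0 of 48 genes passed an adjusted p of 0.05 in either direction, where 0.0931% of all 10746 genes did (0.0838% higher and 0.00931% lower in ethanol). The smallest adjusted p values were those of the receptor Plxnd1, which differed by 0.35 (ethanol minus water, log2; adjusted p = 0.300), and of the semaphorin Sema6d, which differed by -0.23 (adjusted p = 0.307). At an unadjusted p under 0.05 there were 4 genes, 8.33% of those tested, against 10% of all genes. Plxnd1 was the 1 on the higher side (5.24% of all genes), and Sema6d, Efna5 and Nrp1 were the 3 on the lower side (4.77% of all genes). By sign alone 22 genes were above and 26 below 0, so 45.8% were positive against 50.1% of all genes. The median difference was -0.0098, and 0.000155 over all genes.

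Ligand families gave 10 positive and 14 negative differences, and receptor families 11 and 12. The 95% interval of the difference lay within 0.5 either way for 41 of 48 genes and within 0.25 for 23. The 7 genes with wider intervals were Epha5, Epha7, Nrp2, Plxnd1, Sema3c, Sema5a and Slit3, and a difference of over 0.5 in these still lies within their intervals.

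**Figure D1:**
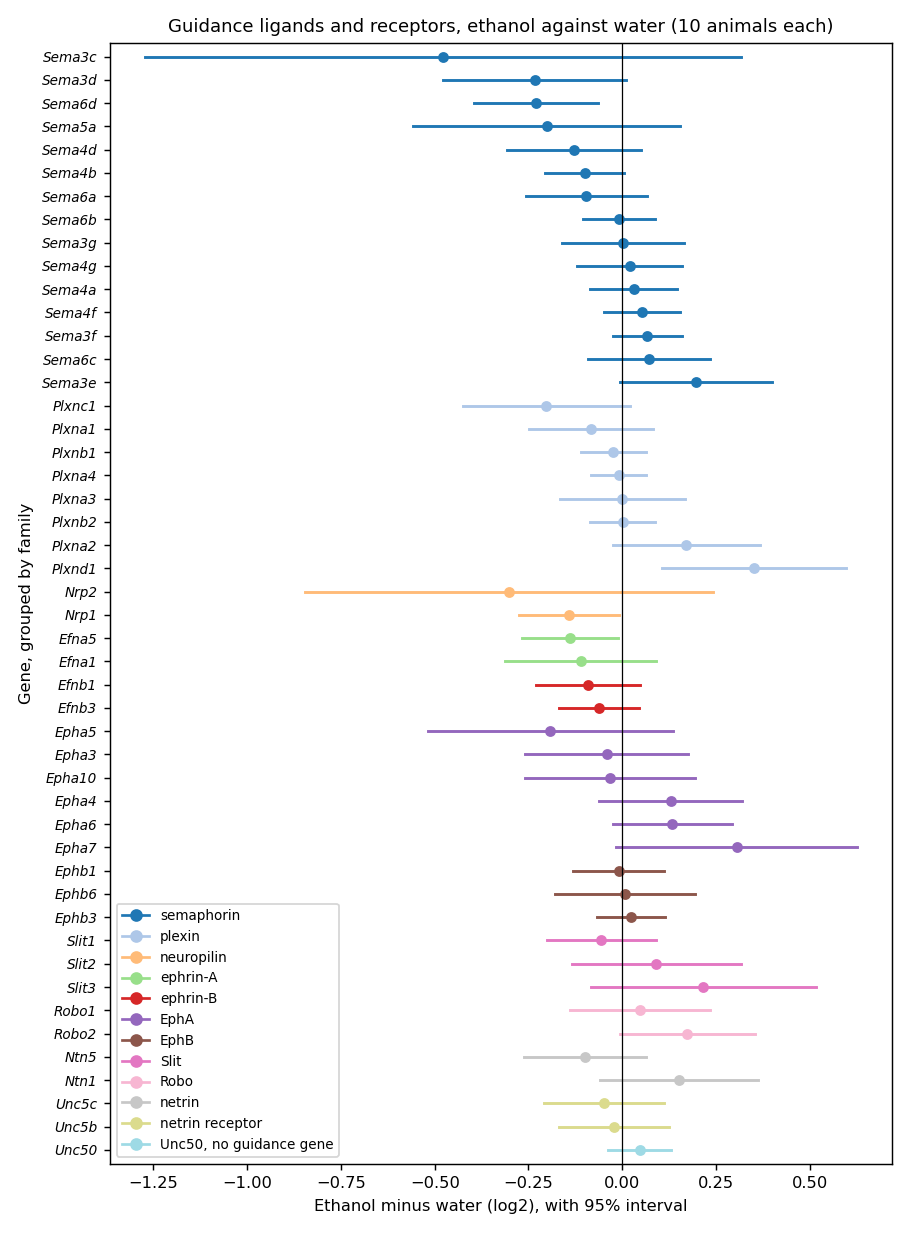
Difference between ethanol and water rats (log2, dots) with its 95% interval (bars) for the 48 tested genes, grouped by family. The intervals of Plxnd1, Sema6d, Efna5 and Nrp1 leave out 0, those of the other genes include it, and that of Sema3c is the widest.

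Sema3e and Plxnd1, a ligand and its receptor, both had positive differences that did not pass. Plxnd1 had its lowest, median and highest values at 8.56, 8.93 and 9.10 in ethanol and 7.88, 8.76 and 8.96 in water. The groups overlapped: 4 ethanol rats lay above every water rat, and water animals 20, 19 and 17 formed the low end at 7.88, 8.14 and 8.24. The means were 8.92 ± 0.16 in ethanol and 8.57 ± 0.37 in water (SD, n = 10 each), 1.28-fold higher in ethanol, a difference of 0.35 ± 0.12 (SE, limma, adjusted p = 0.300). Without those 3 water animals the Plxnd1 difference was 0.14 (adjusted p = 0.477). Leaving out the lowest water rats must lower a positive difference, and leaving out the highest must raise a negative one. Here and below, the direction of such a shift was fixed in advance.

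Sema3e, a secreted semaphorin, had its lowest, median and highest values at 10.81, 11.04 and 11.41 in ethanol and 10.29, 10.97 and 11.17 in water. Again 4 ethanol rats exceeded all water rats, and water animals 17, 20 and 19 were lowest of all 20, at 10.29, 10.58 and 10.78. Its difference was 0.20 ± 0.10 (SE, limma, adjusted p = 0.425), and 0.056 without those animals (adjusted p = 0.815).

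Sema6d, a transmembrane semaphorin that signals through class A plexins, had its lowest, median and highest values at 11.39, 11.54 and 11.78 in ethanol and 11.55, 11.68 and 12.23 in water. All 10 ethanol rats lay below the water mean and 5 of them below every water rat, while water animals 20, 19 and 17 were the highest. Its means were 11.56 ± 0.12 in ethanol and 11.79 ± 0.23 in water (SD, n = 10 each), 1.17-fold higher in water, a difference of -0.23 ± 0.079 (SE, limma, adjusted p = 0.307). Without those 3 animals the difference was -0.10 (adjusted p = 0.508). Plxna2, a class A plexin, had its lowest, median and highest values at 11.21, 11.53 and 11.70 in ethanol and 10.75, 11.44 and 11.61 in water, with the 3 lowest of all in water animals 20, 17 and 19. It differed by 0.17 ± 0.094 (SE, limma, adjusted p = 0.465), and by 0.018 without them.

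Plxnc1, the receptor of Sema7a, had its lowest, median and highest values at 9.92, 10.33 and 10.96 in ethanol and 10.31, 10.58 and 10.76 in water. Here the ethanol group was the wider one: 5 ethanol rats lay below all water rats and 2 above all of them. It differed by -0.20 ± 0.11 (SE, limma, adjusted p = 0.449). The other plexins, Plxna1, Plxna3, Plxna4, Plxnb1 and Plxnb2, which serve class 3, 4 and 6 semaphorins, differed by -0.084 to 0.00106, and Plxna1, at the lower end, by 0.0094 without water animals 17, 19 and 20.

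Sema3c, a secreted class 3 semaphorin, had the largest SD between water rats of the genes tested. Its lowest, median and highest values were 8.21, 8.73 and 9.54 in ethanol and 8.09, 8.80 and 11.29 in water. Water animals 17, 20 and 19 stood at 11.29, 11.22 and 10.48, above all other animals, and the remaining water rats overlapped the ethanol rats. The difference was -0.48 ± 0.38 (SE, limma, adjusted p = 0.605) with all animals and 0.24 without those 3 (adjusted p = 0.694). Nrp2, a neuropilin that binds Sema3c and Sema3f, had its lowest, median and highest values at 7.46, 8.50 and 9.26 in ethanol and 7.66, 8.91 and 9.73 in water. The same 3 water animals were on top, at 9.73 for 17, 9.55 for 19 and 9.44 for 20. Nrp2 differed by -0.30 ± 0.26 (SE, limma, adjusted p = 0.633), and by 0.055 without them.

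Sema5a, a transmembrane semaphorin with thrombospondin repeats, also had its 3 highest values in these animals. Its lowest, median and highest values were 9.18, 9.49 and 9.99 in ethanol and 9.23, 9.46 and 10.64 in water. It differed by -0.20 ± 0.17 (SE, limma, adjusted p = 0.626), and by 0.11 without them (adjusted p = 0.696).

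Nrp1, the co-receptor of Sema3a, had its lowest, median and highest values at 9.14, 9.42 and 9.51 in ethanol and 9.28, 9.47 and 9.76 in water. Of the ethanol rats 9 lay below the water mean and 3 below every water rat, and the rest overlapped. The Nrp1 difference was -0.14 ± 0.065 (SE, limma, adjusted p = 0.400), and -0.10 without water animals 17, 19 and 20. Sema3d, a class 3 semaphorin, had its lowest, median and highest values at 6.43, 6.83 and 7.31 in ethanol and 6.79, 7.07 and 7.51 in water, and its mean over all arrays of 6.97 was near the dimness limit. The 4 lowest animals were ethanol rats, yet others of that group lay among the highest, beside water animals 19, 20 and 17 at 7.51, 7.30 and 7.27. It differed by -0.23 ± 0.12 (SE, limma, adjusted p = 0.428), and by -0.12 without those 3 water animals. Sema3f, a repellent that acts through Nrp2, had its lowest, median and highest values at 8.52, 8.67 and 8.77 in ethanol and 8.47, 8.56 and 8.85 in water and differed by 0.067 ± 0.044 (SE, limma, adjusted p = 0.533), or by 0.030 without them. Its highest water value was that of animal 12. In 14 other settings of the analysis Sema3f differed by 0.030 to 0.12, with an unadjusted p under 0.05 by limma in 4. The adjusted p was 0.269 or more in all of them. Another Sema3f probe set, too dim to test, differed by 0.22, with all 10 ethanol rats above the water mean.

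The class 4 semaphorins Sema4b and Sema4d, of which Sema4d binds Plxnb1, had negative differences. Sema4b had its lowest, median and highest values at 8.89, 9.16 and 9.23 in ethanol and 9.03, 9.23 and 9.43 in water, and all 10 ethanol rats lay below the water mean. It differed by -0.10 ± 0.051 (SE, limma, adjusted p = 0.433). Sema4d had its lowest, median and highest values at 8.81, 9.12 and 9.43 in ethanol and 8.96, 9.22 and 9.57 in water, with 8 of 10 ethanol rats below the water mean. It differed by -0.13 ± 0.086 (SE, limma, adjusted p = 0.538), and by -0.031 without water animals 17, 19 and 20. The remaining tested semaphorins, Sema3g, Sema4a, Sema4f, Sema4g, Sema6a, Sema6b and Sema6c, differed by -0.10 to 0.071, and Sema6a, at the lower end, by 0.022 without those animals. Sema3a and Sema3b were too dim to test, with means over all arrays of 6.03 and 5.16.

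All 4 ephrins tested had negative differences, from -0.14 to -0.062, and none passed. Without water animals 17, 19 and 20 Efnb3 was at -0.0064, and without the outlying water animals 12, 17 and 20 it was on the other side of 0, at 0.0019. Efna5, a lipid-anchored ephrin, had its lowest, median and highest values at 9.85, 9.99 and 10.21 in ethanol and 9.88, 10.15 and 10.37 in water. The groups overlapped over most of their range, with 9 of 10 ethanol rats below the water mean and 2 below every water rat. Its difference was -0.14 ± 0.062 (SE, limma, adjusted p = 0.389). It was -0.13 without water animals 17, 19 and 20, and -0.087 without water animals 12 and 13, the highest of all 20 (adjusted p = 0.523). Leaving out the highest water rats must bring a negative difference nearer to 0.

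Efnb1, a transmembrane ephrin, had its lowest, median and highest values at 7.49, 7.99 and 8.17 in ethanol and 7.81, 8.05 and 8.09 in water, with a low tail in ethanol made by animals 5 and 9. It differed by -0.091 ± 0.066 (SE, limma, adjusted p = 0.569). Efna1 and Efnb3 differed by -0.11 and -0.062, and Efna4, too dim to test, had a mean over all arrays of 6.27.

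Eph receptors had differences of both signs. Epha7, a receptor for ephrin-A ligands, had its lowest, median and highest values at 7.55, 8.16 and 8.42 in ethanol and 6.79, 7.97 and 8.25 in water. In ethanol 4 rats lay above every water rat, and the lowest animals were water 20 and 19, at 6.79 and 7.28, followed by ethanol animal 8, at 7.55. The Epha7 difference was 0.31 ± 0.15 (SE, limma, adjusted p = 0.432), and 0.082 without water animals 17, 19 and 20. Epha6 had its lowest, median and highest values at 7.77, 8.02 and 8.23 in ethanol and 7.45, 7.90 and 8.07 in water, also with 4 ethanol rats above every water rat. It differed by 0.13 ± 0.076 (SE, limma, adjusted p = 0.477), and by 0.057 without those animals.

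Epha4, which binds both ephrin classes, and Epha5, a receptor for ephrin-A ligands, were named after their values were seen, since they lay on opposite sides in the same animals. Epha4 had its 3 lowest values in water animals 20, 17 and 19 (12.56, 12.90 and 12.95). Epha5 had its 3 highest there (10.49, 10.33 and 10.20). With all animals Epha4 differed by 0.13 and Epha5 by -0.19 (adjusted p = 0.557 and 0.616), and without these 3 by -0.033 and 0.092 (adjusted p = 0.832 and 0.761).

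Ephb3, which binds ephrin-B ligands, had its lowest, median and highest values at 7.80, 7.91 and 7.97 in ethanol and 7.70, 7.87 and 8.07 in water, and the groups overlapped throughout. It differed by 0.022 ± 0.044 (SE, limma, adjusted p = 0.849), the largest difference of the EphB receptors tested. Ephb1 and Ephb6 differed by -0.0096 and 0.0067, and Epha3 and Epha10 by -0.042 and -0.032. Epha2, Epha8 and Ephb4 were too dim to test, with means over all arrays of 6.27, 5.45 and 5.92. With no limit on dimness, Ephb4 differed by 0.19 (unadjusted p = 0.0392 by limma, adjusted p = 0.459).

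Slits and Robo receptors had positive differences in 4 of 5 genes, and none passed. Without water animals 17, 19 and 20 Slit2 and Slit3 turned negative, which left 2 of 5 positive. Robo2, a receptor of Slits, had its lowest, median and highest values at 10.32, 10.78 and 10.88 in ethanol and 10.06, 10.54 and 10.85 in water. In ethanol 9 of 10 rats lay above the water mean but only 1 above every water rat, and the lowest animals were water 20, at 10.06, and ethanol 8, at 10.32. The Robo2 difference was 0.17 ± 0.087 (SE, limma, adjusted p = 0.425), and 0.063 without water animals 17, 19 and 20. Slit3, a secreted repellent, had its lowest, median and highest values at 9.004, 9.59 and 9.85 in ethanol and 8.58, 9.45 and 9.80 in water, with water animals 20 and 17 lowest of all. It differed by 0.22 ± 0.14 (SE, limma, adjusted p = 0.536), and by -0.020 without those 3 animals. Slit2 differed by 0.091, and by -0.056 without them. Slit1 and Robo1 differed by -0.055 and 0.047, and Robo3 was too dim to test, at a mean over all arrays of 5.08.

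Ntn1, which encodes netrin-1, had its lowest, median and highest values at 10.26, 10.50 and 10.69 in ethanol and 9.85, 10.46 and 10.69 in water. Its 3 lowest values were those of water animals 17, 20 and 19. It differed by 0.15 ± 0.10 (SE, limma, adjusted p = 0.538), and by -0.032 without them. Ntn5, a secreted netrin relative, had a mean over all arrays of 6.80 and differed by -0.10 (adjusted p = 0.598). Without those 3 animals Ntn5 differed by -0.22, with the smallest adjusted p of the guidance genes in that fit (0.128). Beside it, Epha10 and Sema4a had an unadjusted p under 0.05 there, with differences of 0.15 and 0.11 (adjusted p = 0.396 and 0.404).

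Dcc, the attractant receptor of netrin-1, lay below the dimness limit and was not among the tested genes. It is described after its values were seen, since its groups overlapped little. The lowest, median and highest Dcc values were 6.27, 6.45 and 6.71 in ethanol and 5.83, 6.15 and 6.41 in water. All 10 ethanol rats lay above the water mean and 6 above every water rat, and among water rats only animal 12, at 6.41, reached into the ethanol range. The means were 6.44 ± 0.15 in ethanol and 6.14 ± 0.15 in water (SD, n = 10 each). With no limit on dimness, Dcc differed by 0.30 ± 0.067 (SE, unadjusted p = 0.000169 by limma) and did not pass over the 31042 probe sets then tested (adjusted p = 0.133).

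Without water animals 17, 19 and 20 as well, Dcc differed by 0.26 (adjusted p = 0.188), and without the 3 outlying arrays, water 12, 17 and 20, by 0.30 (adjusted p = 0.0895). With RNA integrity, as the 3' minus 5' value, for a covariate it differed by 0.28 (adjusted p = 0.603). These 3 fits were added after seeing the data. Animals 12 and 17 were the highest and lowest water rats for Dcc, so leaving both out narrows the range of the water group. The array reads Dcc with 1 probe set. Of the repellent netrin receptors, Unc5c had its lowest, median and highest values at 8.70, 8.95 and 9.17 in ethanol and 8.81, 8.92 and 9.32 in water. It differed by -0.049 ± 0.077 (SE, limma, adjusted p = 0.809), with the 3 highest values in water animals 17, 19 and 20. Unc5b differed by -0.022, and Unc5a and Unc5cl were too dim to test, at means over all arrays of 6.27 and 6.16. Unc50 had its lowest, median and highest values at 11.36, 11.45 and 11.53 in ethanol and 11.20, 11.42 and 11.55 in water and differed by 0.047 ± 0.041 (SE, limma, adjusted p = 0.635).

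**Figure D2:**
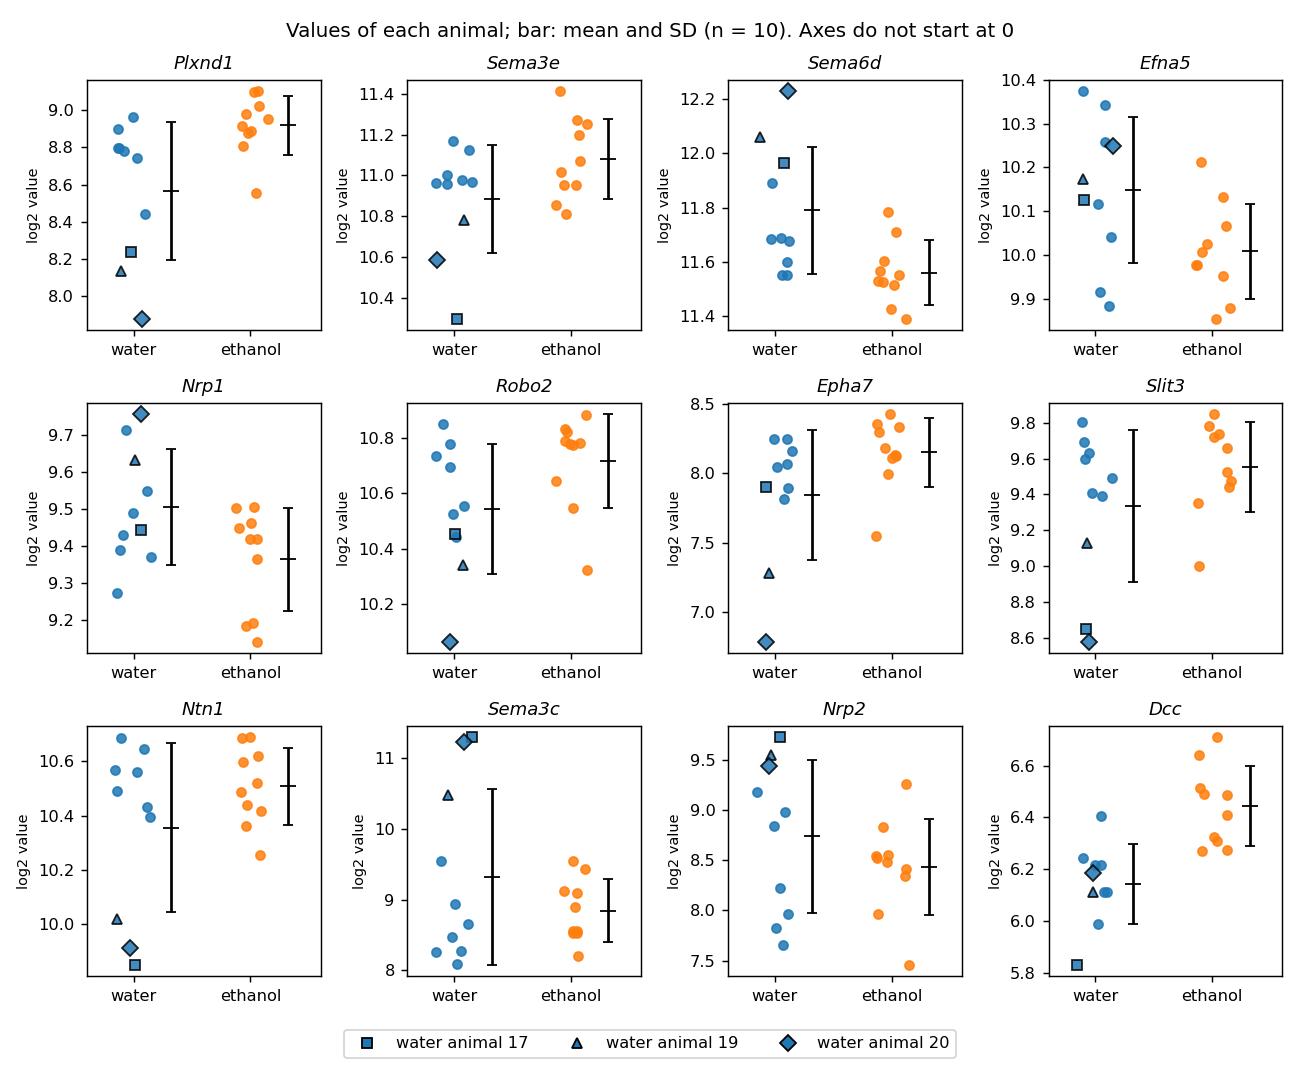
Log2 value of each animal (points) with the mean and SD of its group (bars, n = 10) for 12 genes, water in blue and ethanol in orange, each gene on its own axis that does not start at 0. Water animals 17, 19 and 20 (square, triangle, diamond) are lowest for Plxnd1, Sema3e and Ntn1 and highest for Sema3c, Nrp2 and Sema6d, and for Dcc animal 17 is lowest while 19 and 20 lie among the other water rats.

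Across animals, water rats 17, 19 and 20 recurred at the ends of the range. They had been singled out earlier by their low medium spiny neuron markers, none of which is a guidance gene. In 12 of 48 guidance genes (25.0%) they held the 3 lowest or the 3 highest of the 20 values, and in 12.8% of all genes, a description with no test. They were lowest for 5 genes, Epha4, Ntn1, Plxna2, Plxnd1 and Sema3e, and highest for 7, Epha5, Nrp2, Sema3c, Sema5a, Sema6a, Sema6d and Unc5c. Water animal 20 was the lowest or highest of all 20 in 21 genes (43.8%, and 33.0% of all genes), and water animal 12 in 13 (27.1%, and 26.5% of all genes). Water animal 17 was so in 9 (18.75%, and 19.98% of all genes), and water animal 19 in 4 (8.33%, and 5.97% of all genes). Among ethanol rats, animal 5 was so in 10 (20.8%, and 10.6% of all genes). Ethanol animal 8 was lowest of its own group for 10 of 48 genes, Epha4, Epha6, Epha7, Ephb6, Ntn1, Plxna2, Plxnd1, Robo2, Sema4g and Slit3. Ethanol animals 4 and 5 were so for 7 genes each. The share over all genes was not computed for this count, so it does not set animal 8 apart for guidance genes.

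**Figure D3:**
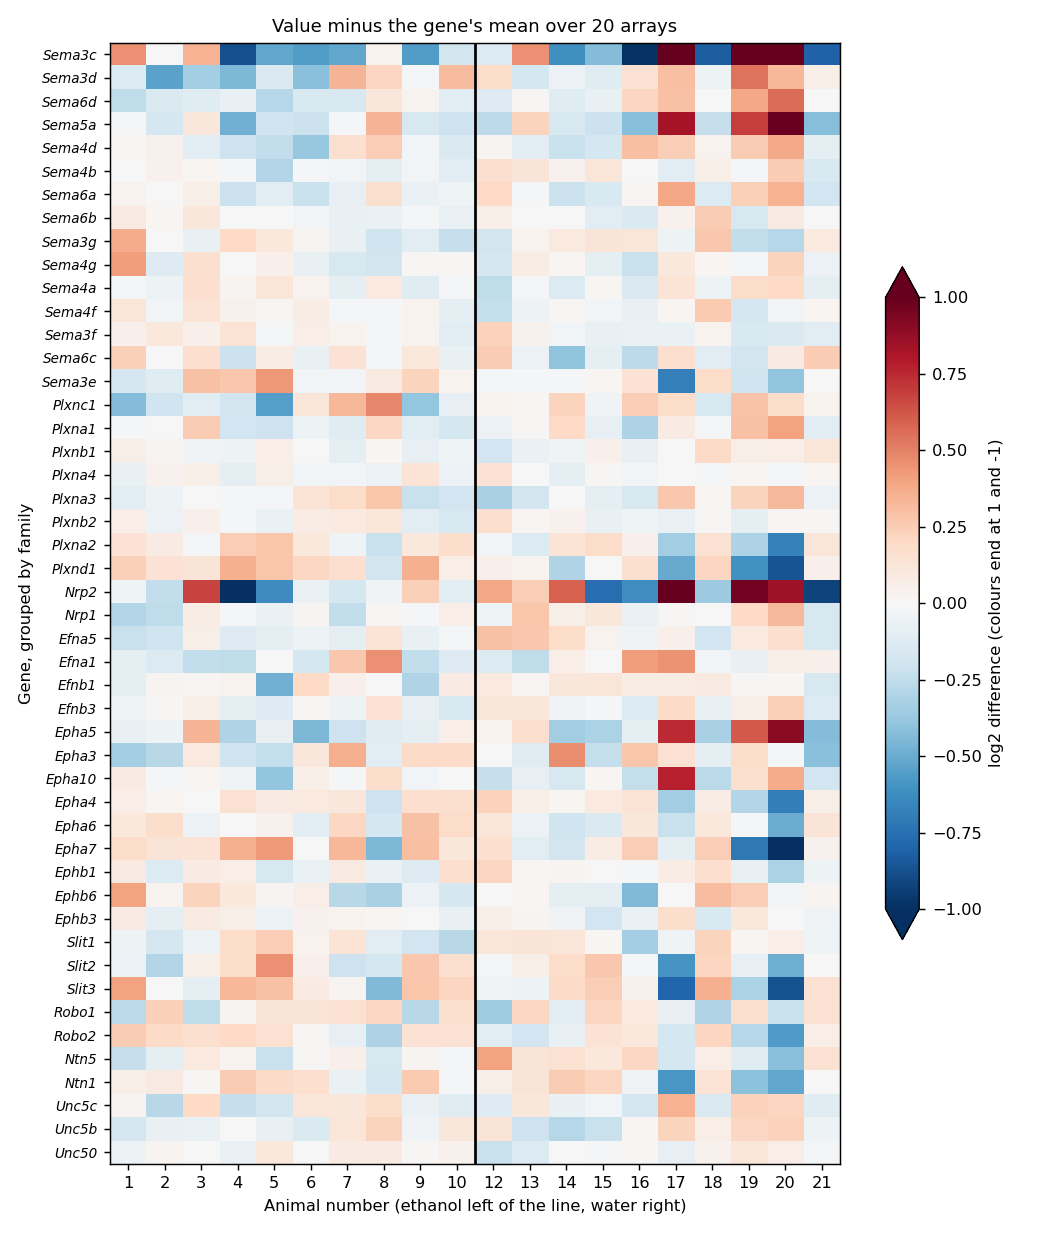
Value of each animal minus the gene's mean over 20 arrays (log2, red higher, blue lower, colours ending at 1 either way) for the 48 tested genes, ethanol animals left and water animals right of the line. Columns 17, 19 and 20 are red for Sema3c, Sema5a, Nrp2 and Epha5 and blue for Plxnd1 and Ntn1.

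The spread between animals was larger in water than in ethanol for 38 of 48 guidance genes (79.2%), and for 81.2% of all genes. The median SD of the guidance genes was 0.211 in water and 0.155 in ethanol, and that of all genes 0.142 and 0.0964. The median size of the difference, sign set aside, was 0.0913 for the guidance genes and 0.0511 for all genes. Of the 10 guidance genes with the larger SD in ethanol, Plxnc1 had 0.33 against 0.14 in water and Efnb1 0.20 against 0.082.

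**Figure D4:**
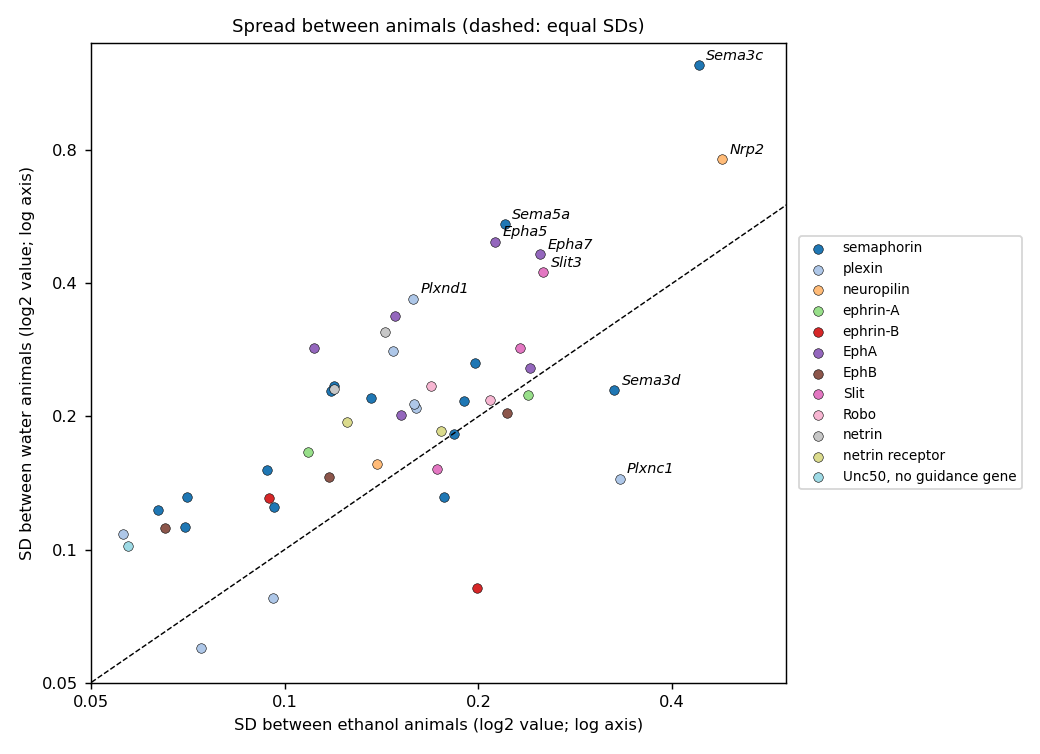
SD between the 10 ethanol animals (x, log axis) and between the 10 water animals (y, log axis) for the 48 tested genes, coloured by family, with equal SDs on the dashed line. Of these genes 38 lie above the line, Sema3c highest, and 10 lie below it, among them Plxnc1 and Efnb1.

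Of the cell type lists, those of medium spiny neurons and of septum and pallidum set water animals 17, 19 and 20 all apart from the other 17. In the remaining lists some or all of them lay within the range of the others. All 23 medium spiny neuron markers tested had positive differences and 0 passed, with a difference of the list mean of 0.26. All 16 oligodendrocyte markers tested, of 19 listed, had negative differences and 0 passed. Their list mean was 10.84 to 11.74 in ethanol and 10.82 to 11.77 in water, with water animals 17, 20 and 19 at 11.77, 11.62 and 11.61. Markers of septum and pallidum, which lie beside the shell (7 tested of 10), were at 7.73 to 8.28 in ethanol and 7.76 to 8.78 in water, with animals 17, 19 and 20 at 8.57, 8.35 and 8.78 and the other 17 animals at 8.30 at most. Cortical excitatory markers (5 tested of 10) were highest in water animals 19 and 20, at 9.16 and 9.16. In bulk tissue, fewer cells of a type and less RNA per cell cannot be told apart.

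The lists of the remaining cell types differed by less in their means than the medium spiny neuron list. It was -0.13 (0 positive and 8 negative of 8 tested and 10 listed) for oligodendrocyte precursors and -0.079 (3 positive and 8 negative of 11 tested and 12 listed) for astrocytes. It was -0.076 (2 positive and 9 negative of 11 tested and 13 listed) for microglia, 0.048 (10 positive and 5 negative of 15 tested and 18 listed) for endothelial and mural cells and -0.015 (6 positive and 5 negative of 11 tested and 15 listed) for interneurons. None of these markers passed, and none is a guidance gene.

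With the medium spiny neuron mean as covariate, measured on the same arrays, Plxnd1 differed by 0.17, Sema3e by 0.079, Epha7 by 0.088, Robo2 by 0.046 and Sema6d by -0.12. Efna5 and Nrp1 differed by -0.10 and -0.10 in that fit, and no guidance gene passed. The covariate was itself higher in ethanol by 0.26, so it can take up part of a group difference. With the 3' minus 5' value in its place, Plxnd1 and Sema6d differed by 0.37 and -0.29 (adjusted p = 0.665 and 0.596).

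The array has further probe sets for 24 of the 58 genes. For Efna5, Efnb1, Ntn1, Unc5b, Unc5c, Nrp2, Plxna1, Sema3f, Sema3g, Sema5a and Sema6c every further one was too dim to test. The 4 probe sets of Epha4 differed by 0.13, 0.15, 0.25 and 0.0063, and the 3 of Plxna2 by 0.17, 0.11 and 0.10. Further tested probe sets of Nrp1, Robo2, Epha7 and Plxnc1 differed by -0.086, 0.10, 0.11 and -0.085, each with the sign of the brightest one and a smaller size. Plxnb1, the receptor of Sema4d, differed by -0.024 on its brightest probe set and by 0.071 and 0.076 on the others. Efna1 differed by -0.11 on one and 0.035 on the other. None of these probe sets passed, and Plxnd1, Sema6d and Sema3e have 1 each.

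Proteins that act within the cell below these receptors had no member past the threshold. Of 52 listed effectors 46 were tested, 29 with positive and 17 with negative differences, a median of 0.017, and 0 passed by limma. Over all genes 50.1% were positive and 0.0931% passed. At an unadjusted p under 0.05 there were 2 higher and 1 lower among the 46, where 5.24% of all genes were higher and 4.77% lower. Cdk5r1, the activator of the kinase Cdk5 in neurons, differed by 0.24 (adjusted p = 0.327). Vav3, a signalling protein that acts below Eph receptors, differed by 0.18 (adjusted p = 0.327). The Src family kinase Fyn, which plexins and Eph receptors use, differed by -0.11 (adjusted p = 0.327), and Pak3, a kinase that acts on the actin cytoskeleton, by -0.11 (adjusted p = 0.417).

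Of 48 other guidance cues and receptors 35 were tested, 14 with positive and 21 with negative differences, a median of -0.032, and 0 passed by limma. The list mean of water animals 17, 19 and 20 was 9.912, 9.907 and 9.934, and that of the other animals 9.901 at most. The shares over all genes were 50.1% positive and 0.0931% passing. At an unadjusted p under 0.05 there was 1 of the 35, where 10% of all genes were. The smallest p was that of Lrrc4c, the netrin-G1 ligand, with a difference of -0.12 (adjusted p = 0.409). Slitrk1, a synaptic adhesion protein with leucine-rich repeats, differed by -0.24 (adjusted p = 0.416), the contactin Cntn4 by 0.26 (adjusted p = 0.467), and the Wnt receptor Ryk by 0.080 (adjusted p = 0.473).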

How the data were processed

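RNA of 20 animals was hybridised to Affymetrix arrays with 1 colour. The labels' protocols name Trizol, a column kit, and a kit that labels cRNA from the 3' end. The deposited values are on the log2 scale and were made by the authors with RMA, per the submitters' processing notes. RMA equalises array distributions, so a shift of most genes together would not show, and it compresses differences of dim probe sets. The RMA software and chip definition are not stated in these sources, and the values carry no measure of background.

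Of 31099 probe sets, 57 controls and the dimmest 33.3% were left out. The other 20695 were fitted with limma (3.58.1, R 4.3.3; lmFit and eBayes, two-sided, no covariates) with Benjamini-Hochberg adjustment over all of them. The fit was also tested on simulated data with independent noise and equal SDs in both groups. The real arrays differ from that setting, since the SD was larger in water for 81.2% of all genes. All 58 guidance genes matched RefSeq by identifier, and 0 symbols changed. Given in full are the 16 genes of smallest p and the gene of largest difference per family or semaphorin class, and 4 genes per further list. Members and lists were chosen with earlier results of these data known, and water animals 12, 13, 17, 19 and 20 were picked out in them. In 14 other settings the filter, scaling, variance model, array weights, probe set choice, arrays or covariates were altered, and 3 more were added after seeing the data. The number of arrays limits the precision.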

Additional observations from a re-analysis of the deposited data

Results flagged for a closer look

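For the guidance genes given in full, the most extreme animal of each group was compared with Dixon's 95% critical value, which chance passes in about 1 of 20 groups. Of 52 groups, 5 held an animal that far from the others. Ethanol animal 8 was low for 2 Eph receptors, at 7.55 for Epha7 (next animal 7.99) and 13.04 for Epha4 (next 13.24). Ethanol animal 5 was low for Sema4b, at 8.89 (next 9.08). Water animal 12 was high for Sema3f, at 8.85 (next 8.67), and water animal 21 low for Efnb1, at 7.81 (next 7.98).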

How the results depend on the processing

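No guidance gene passed in any of the 17 other settings. The smallest adjusted p of a guidance gene lay between 0.128 and 0.596 in 14 of them, and at 0.162, 0.603 and 0.0895 in the 3 added after seeing the data, the last for Dcc. Between settings 2 to 7 guidance genes had an unadjusted p under 0.05. Of all probe sets 20 passed, but 50 without water animals 17, 19 and 20, 48 with the medium spiny neuron mean as covariate, 38 with array weights, 10 of 15521 with a stricter limit on dimness, 8 with the 3' minus 5' value as covariate, and 10 of 10746 genes with probe sets averaged. The median difference of the guidance genes, -0.0098, was 0.014 without water animals 17, 19 and 20. The sign turned without these animals for 15 of 48 guidance genes, with the medium spiny neuron mean as covariate for 17 and without water animals 12, 17 and 20 for 12, Slit2 among them in each (-0.056, -0.062 and -0.045). In the other settings 0 to 7 turned. The share over all genes was not computed for these counts, so they do not set guidance genes apart. Among genes given in full or named after their values were seen, it turned without water animals 17, 19 and 20 for Nrp2 (0.055), Sema3c (0.24), Sema5a (0.11), Epha5 (0.092), Unc5c (0.053), Ntn1 (-0.032), Slit3 (-0.020) and Epha4 (-0.033), and with the medium spiny neuron mean as covariate for the same genes, in that order at 0.016, 0.11, 0.075, 0.042, 0.051, -0.012, -0.030 and -0.013. Water animals 17, 19 and 20 were lowest for the medium spiny neuron mean, which itself differed by 0.26 between groups. The fits without them and with that covariate are therefore not independent, and the covariate can take up part of a group difference. In 12 guidance genes these animals held the 3 lowest or 3 highest values. Leaving them out there had to move the difference towards or past 0. Without water animals 12, 17 and 20 Sema3c was at 0.021, Epha5 at 0.0089 and Unc5c at 0.0017. Unc5c was at 0.0046 with the oligodendrocyte mean as covariate, and Unc50 at -0.000253 with the 3' minus 5' value. The cause was not tested. The 3 runs of the deposit order, which no label calls batches, gave no call as a block. No paired analysis was possible because the groups share no animal numbers. The values give no signal over background, which limits dim genes such as Dcc.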
